A study of Glycine max with 54 samples.

Results

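Minsoy is a soybean variety, and the step described here is the growth of its field-grown seeds from 2 mm to 3.5 mm in length in the 2007 season. The members were chosen by sample title: 3 arrays of Minsoy seeds of 3.5 mm (Stage 2) and 3 arrays of Minsoy seeds of 2 mm (Stage 1), 6 of the 54 arrays of the series. A probe set, the group of short probes that reads 1 transcript on an Affymetrix soybean array, entered the comparison if its log2 signal was 5 or more in at least 3 of these 6 arrays, which held for 24148 of 37570 soybean probe sets that are not controls. All values are log2 signals, on which a difference of 1 is a doubling, and differences are given as 3.5 mm minus 2 mm.

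The series profiled whole developing seeds of the varieties Minsoy and Archer and of recombinant inbred lines from their cross at lengths of 2, 3.5 and 5-6 mm, which the labels place at about the reproductive stages R4, R5 and early R6. Beside the Minsoy seeds of 2007, the comparisons below use Archer seeds of 3.5 and 2 mm from 2007 and Minsoy seeds of 3.5 and 2 mm from 2008, with 3 arrays in each group, and Minsoy seeds of 5-6 mm from 2007, also with 3 arrays. In 2007 each line was grown as a single row in Minnesota, and no plant received a treatment. The 3 samples of a length were independent samples from that row. The fit used below pools the spread within 6 groups, the 3 lengths of Minsoy and Archer in 2007. Its p-values thus measure spread within rows of 1 season, and not between rows or seasons.

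A young soybean seed consists of a growing seed coat, a liquid endosperm and a small embryo. As the embryo fills the seed coat, its cells stop dividing and take up sucrose and amides from the coat, and they begin to make storage proteins, protease inhibitors, oil and the hydrophilic proteins that later protect the dry seed. Transcription factors of the LEC1, NF-Y and WRINKLED families control this program. In whole seeds, more cells of a type and more RNA per cell cannot be told apart.

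One of the 6 arrays stood apart from its group. Minsoy 3.5 mm replicate 3 had a mean correlation of 0.965 with the other 3.5 mm arrays of Minsoy, against 0.975 for replicate 1 and 0.975 for replicate 2. Its mean correlation with the Minsoy 5-6 mm arrays was 0.957, against 0.914 and 0.915 for replicates 1 and 2, and with 5-6 mm replicate 1 alone it was 0.989. On the first principal component of the 18 parental arrays of 2007, which held 60.9% of the variance, it lay at 69.6, while the other 3.5 mm arrays lay at 11.8 and 11.1 and the 2 mm arrays at -86.7, -71.6 and -92.3. The median log2 signal of an array was 7.26, 7.29 and 7.30 at 3.5 mm, with replicate 3 highest, against 7.21, 7.23 and 7.22 at 2 mm. The 3′ minus 5′ signal of an actin control, a measure of RNA integrity, was -0.67, -0.61 and -0.75 at 3.5 mm, against -0.06, -0.75 and -0.57 at 2 mm, so that 2 mm replicate 1 differed from the other 5 arrays. The part of this in the results was not tested.

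**Figure D1:**
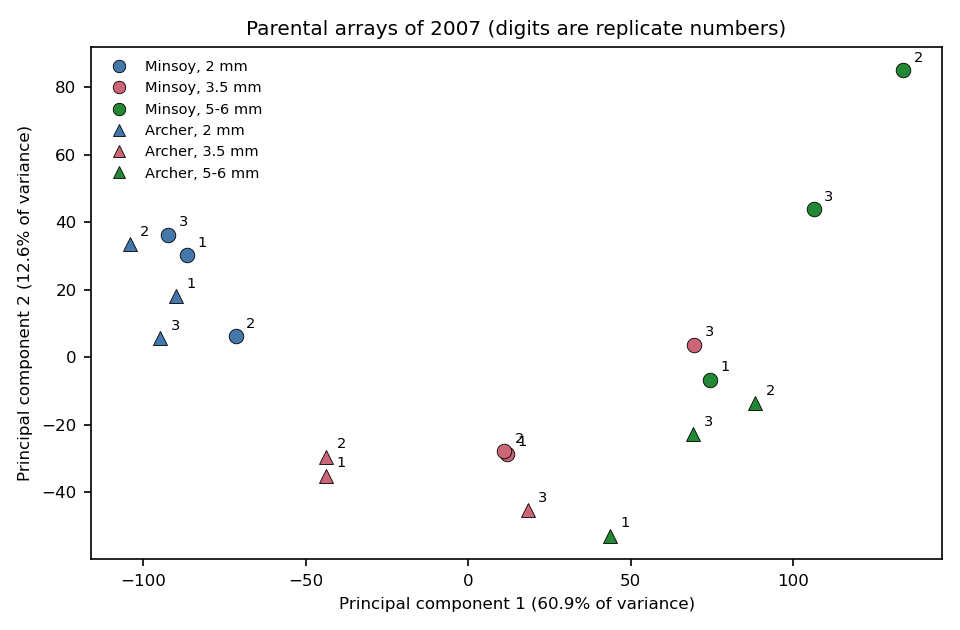
The first 2 principal components of the 18 parental arrays of 2007, with the share of variance on each axis; circles are Minsoy, triangles are Archer, colours are seed lengths and digits are replicate numbers. Minsoy 3.5 mm replicate 3 lies at 69.6 on the horizontal axis, next to Minsoy 5-6 mm replicate 1 at 74.5 and away from the other Minsoy 3.5 mm arrays at 11.8 and 11.1.

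The first question was which transcripts differed between the 3.5 mm and the 2 mm seeds. In the limma fit, 3538 of the 24148 probe sets (14.7%) had an adjusted p under 0.05. Of these, 2036 (8.43% of all tested) rose and 1502 (6.22%) fell. The split depends on the scaling of the arrays: centring each array on its median gave 1748 rises and 2091 falls, and quantile normalization gave 1792 rises and 1928 falls. Without such rescaling, 1176 probe sets rose and 602 fell by 2-fold or more, 262 rose and 58 fell by 8-fold or more, and 151 rose and 20 fell by 16-fold or more. The median called rise was 1.14 and the median called fall -0.85, beside a median of -0.01 over all probe sets tested. Of the 2036 rises, 221 were under the filter level in every 2 mm array. Of the 1502 falls, 90 were under it in every 3.5 mm array. These probe sets passed the filter only through the length where they were high, so they had to differ. How many of them are among the changes of 2-fold or more was not counted.

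Without 3.5 mm replicate 3, 1804 probe sets (7.47%) passed, 1206 (4.99%) of them higher and 598 (2.48%) lower, and 1756 of the 1804 were also among the 3538 and had the same sign there. Replicate 3 was the highest of the 3.5 mm arrays in 1352 of the 2036 rises (66.4%) and the lowest in 1094 of the 1502 falls (72.8%). The median difference of the risen probe sets from the 2 mm mean was 1.06, 1.05 and 1.35 in 3.5 mm replicates 1, 2 and 3, and that of the fallen ones was -0.76, -0.70 and -1.05. The calls were made with these arrays, which fixes the direction of the medians; replicate 3 lay farthest. The number of calls also fell to 2137 without 2 mm replicate 1 and to 2007 without 2 mm replicate 3.

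Named genes below have a descriptive symbol in the array annotation and are read by 1 probe set each. Of 717 such genes, 108 (15.1%) rose and 50 (6.97%) fell, and their median difference was 0.05. The list counts below stand beside these shares, and no list was tested against them.

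Most of the largest rises were in transcripts of proteins known from the filling seed. PM34, a seed maturation protein, was at 9.29, 9.72 and 13.00 in the 3.5 mm arrays, against 2.49 in each of the 2 mm arrays (difference 8.18, SE 1.16, adjusted p = 0.000494). Its 2 mm values lie near the lowest value of the scale, 1.96, so its difference starts from a level the array could not measure. FAD2-1A, the seed oleate desaturase that makes linoleic acid for oil, was at 11.12, 11.43 and 13.77 at 3.5 mm, against 2.67, 6.24 and 4.91 at 2 mm (difference 7.50, SE 1.24, adjusted p = 0.0014). The groups did not overlap for either gene, as the naming rule required. Of all tested probe sets, 17.8% were higher at 3.5 mm with no overlap. Replicate 3 was the highest of the 3.5 mm arrays for both genes.

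KTI3, a Kunitz trypsin inhibitor, was at 14.76, 14.72 and 15.38 in 3.5 mm seeds, against 8.36, 10.27 and 8.96 in 2 mm seeds (difference 5.76, SE 0.76, adjusted p = 0.000317). Here the 3.5 mm arrays lay within 1 log2 unit of each other, and the difference was 5.54 without replicate 3. P89, which has no product description in the tables used here, was at 14.09, 14.43 and 15.10, against 7.64, 9.44 and 8.54 at 2 mm (difference 6.00, SE 0.63, adjusted p = 6.85e-05). VPE, a vacuolar processing enzyme of the kind that cleaves storage protein precursors, was at 9.54, 9.27 and 11.00 in 3.5 mm arrays, against 4.76, 6.03 and 4.91 in 2 mm arrays (difference 4.70, SE 0.63). In all of these the lowest 3.5 mm array exceeded the highest 2 mm array by more than 3 log2 units.

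LOX3, a seed lipoxygenase, had the most uneven 3.5 mm arrays of the 12 largest rises: 5.55, 7.58 and 12.68, against 2.70, 2.79 and 2.81 at 2 mm (difference 5.84, SE 1.59, adjusted p = 0.0235). Without replicate 3 its difference was 3.80 and it no longer passed (adjusted p = 0.111). PM34, P91, LOX3, PM16 and PM32, 5 of the 12, were under log2 5 in every 2 mm array and passed the level filter only through their 3.5 mm arrays, so they had to differ. Apart from LOX3, the other 11 of the 12 passed without 3.5 mm replicate 3. Without 2 mm replicate 1 and without 2 mm replicate 3, 11 of the 12 passed as well. These counts cover the 5 genes that had to differ. The remaining members of the 12 were P91 (6.78), GASA12 of the gibberellin-regulated GASA peptides (5.46) and the seed maturation proteins PM16 (5.34), PM30 (5.05), PM32 (5.02) and PM12 (5.02). Replicate 3 was the highest 3.5 mm array for all 12.

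**Figure D2:**
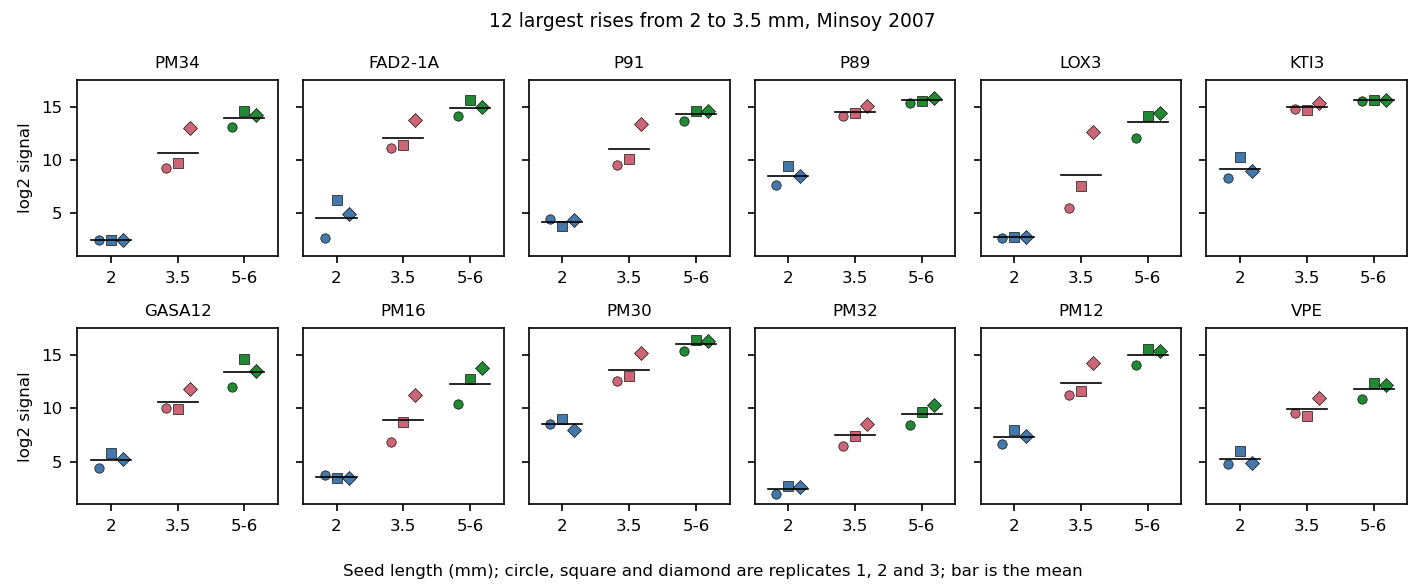
Log2 signal (vertical axis) of the 12 named genes with the largest called rises in each Minsoy array of 2007 at 2, 3.5 and 5-6 mm (horizontal axis); bars are group means of 3 arrays. PM34 lies at 2.49 in all 2 mm arrays and at 9.29 to 13.00 at 3.5 mm, and the diamond of 3.5 mm replicate 3 is the highest 3.5 mm point in every panel.

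Among the seed maturation and late embryogenesis genes on the array, 13 of 30 passed the level filter, and 10 of these 13 rose and 0 fell, with a median difference of 4.30. Of the 13, 5 were under log2 5 in every 2 mm array and passed the filter only through their 3.5 mm arrays, so they had to differ. Of the other 8, which had a 2 mm array at log2 5 or more, 5 rose. LEA5, a late embryogenesis protein, was at 10.28, 10.81 and 13.36 at 3.5 mm, against 6.59, 7.55 and 7.42 at 2 mm (difference 4.30, adjusted p = 0.00656). PM40 differed by 3.61, PM9 by 4.63, PM39 by 3.89 and PM29 by 3.33. PM37, PM23 and LEA-2 did not pass, with differences of -0.12, 0.23 and -0.17. Without 3.5 mm replicate 3, 9 of the 13 rose, and PM29 was the one lost (adjusted p = 0.125).

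The storage protein genes were mostly under the filter, and their levels separated the 3.5 mm arrays from each other. Of 12 storage globulin and albumin genes on the array, 1 passed the filter: A1, an albumin-1 gene, was at 15.44, 13.69 and 16.21 in the 3.5 mm arrays, against 10.21, 11.76 and 10.40 in the 2 mm arrays (difference 4.32, SE 0.79, adjusted p = 0.00249). The other 11 reached log2 5 in 0 of the 2 mm arrays. At 3.5 mm, 0 of the 11 reached it in replicate 1, 1 in replicate 2 and 7 in replicate 3, so they are given as values with no test. Being under the filter, none of the 11 could reach log2 5 in all of the 3.5 mm arrays.

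GY1, a glycinin, was at 1.96, 1.96 and 16.16 in 3.5 mm replicates 1, 2 and 3, against 1.96 in each 2 mm array, and at 5-6 mm it was at 15.74, 16.76 and 16.34. GY2 was at 2.00, 2.05 and 13.80 at 3.5 mm, GY5 at 1.96, 1.96 and 12.95, and CG-1, a beta-conglycinin gene, at 1.96, 1.96 and 10.80, with each of the 3 genes between 1.96 and 2.02 at 2 mm. The level of these glycinin and conglycinin transcripts was thus at the floor in replicates 1 and 2 and high in replicate 3. GM2S-1, a small seed albumin, was already measurable in replicate 2, at 2.12, 7.53 and 12.92, against 1.96, 1.97 and 1.96 at 2 mm. The probes of closely related globulin genes can bind each other's transcripts, so values of single family members are uncertain. CG-BETA-1, a beta subunit gene of conglycinin, was at 1.96, 1.96 and 2.33 at 3.5 mm, and BG7S-2, a basic globulin gene, was at 1.96 in all 3, so that in replicate 3 too some members of the list were not above the floor.

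Other seed proteins under the filter also had uneven 3.5 mm arrays. A gene at log2 5 or more in all of the 3.5 mm arrays would have passed the filter. Some unevenness is thus built into this choice of genes, while which array was high is not. Their counts were not set beside those of all probe sets under the filter. Of 17 seed maturation genes under it, 9 reached log2 5 in replicate 3, 1 in replicate 2 and 0 in replicate 1, and 0 did so in any 2 mm array. Of 5 protease inhibitor and seed defence genes, 4 reached it in replicate 3 and 2 in replicate 2. D-II, a Bowman-Birk type inhibitor, was at 1.96, 5.19 and 14.73 at 3.5 mm, against 1.96 in each 2 mm array. KTI1, a Kunitz inhibitor, was at 1.96, 6.16 and 11.85, against 1.96 in each 2 mm array. P34, a thiol protease homologue of the vacuole, was at 2.04, 2.11 and 14.23, against 1.96, 1.96 and 2.04. The seed lipoxygenase LOX2 was at 1.96, 3.69 and 13.96, against 1.96 in each 2 mm array. In D-II, KTI1, LOX2 and GM2S-1 replicate 2 lay between replicate 1 and the much higher replicate 3.

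**Figure D3:**
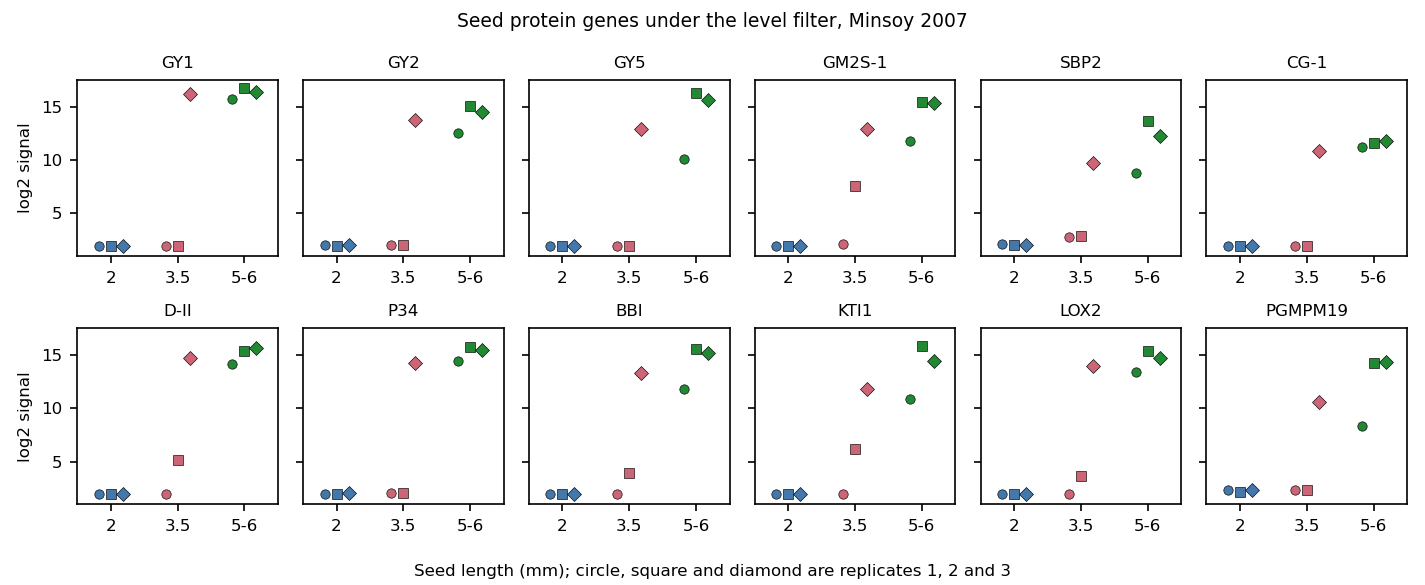
Log2 signal (vertical axis) of 12 seed protein genes that did not pass the level filter, in each Minsoy array of 2007 at 2, 3.5 and 5-6 mm (horizontal axis). GY1 lies at 1.96 in all 2 mm arrays and in 3.5 mm replicates 1 and 2, and at 16.16 in 3.5 mm replicate 3, within the range of the 5-6 mm arrays (15.74 to 16.76).

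Replicate 3 also held transcripts outside the storage program that were at or near the floor in the other 5 arrays. The NAC transcription factor genes NAC1, NAC26 and NAC12 were of this kind: NAC1 at 1.96, 1.96 and 8.0, NAC26 at 1.96, 1.96 and 7.43, and NAC12 at 1.98, 2.00 and 8.22 at 3.5 mm, against 1.96 to 2.94 at 2 mm. XET1, a xyloglucan endotransglucosylase that remodels the cell wall, was at 1.96, 1.96 and 10.24, against 1.96 in each 2 mm array. These 4 genes were chosen after their values were seen. In 5-6 mm replicate 2, NAC1 was at 2.11 and XET1 at 1.96, while 5-6 mm replicates 1 and 3 had 7.17 and 8.95 for NAC1 and 7.66 and 11.08 for XET1. For both genes the 5-6 mm arrays thus differed among themselves, and 3.5 mm replicate 3 lay with replicates 1 and 3 of that length.

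The regulators of the program lay above their 2 mm levels in all 3 of the 3.5 mm arrays, as did A1, the storage gene that passed the filter. All 5 measured seed transcription regulators rose (median difference 2.38), and all 5 also passed without 3.5 mm replicate 3. LEC1-A, a LEAFY COTYLEDON1 subunit gene of the NF-Y complex, was at 12.05, 11.91 and 12.34 in 3.5 mm seeds, against 9.50, 9.65 and 9.22 in 2 mm seeds (difference 2.65, SE 0.31, adjusted p = 0.000183). WRI1B, a WRINKLED1 activator of fatty acid synthesis, was at 9.77, 9.71 and 10.11, against 7.34, 7.59 and 7.36 (difference 2.44, SE 0.29, adjusted p = 0.000196). For both genes the arrays of a length lay within 0.5 of each other and the groups more than 2 log2 units apart.

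NF-YA13 and NF-YA05 encode A subunits of the same kind of complex. NF-YA13 was at 7.66, 7.65 and 8.53 at 3.5 mm, against 5.48, 5.93 and 5.30 at 2 mm, a difference of 2.38. NF-YA05 was at 10.65, 10.60 and 10.58 at 3.5 mm, against 9.15, 9.41 and 8.93 at 2 mm, a difference of 1.45. MFT, a homologue of the seed germination regulator MOTHER OF FT, was at 12.18, 12.96 and 13.26, against 10.57, 11.05 and 10.08, a difference of 2.23. In each of these 3 genes every 3.5 mm array lay above every 2 mm array, as in 17.8% of all tested probe sets. Replicate 3 was the highest 3.5 mm array for NF-YA13 and MFT and the lowest for NF-YA05.

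Of 22 fatty acid and oil genes, 6 rose and 0 fell, with a median difference of 0.31. Beside FAD2-1A and WRI1B these were genes of the plastid: ACCC-2 and ACCC-3, biotin carboxylase subunits of acetyl-CoA carboxylase, ACCB-2, a biotin carrier subunit, and SAD2, a stearoyl-ACP desaturase. ACCC-2 was at 12.46, 12.34 and 12.76 at 3.5 mm, against 11.08, 11.16 and 10.97 at 2 mm (difference 1.45, SE 0.21, adjusted p = 0.000625). SAD2 differed by 1.08, ACCB-2 by 0.56 and ACCC-3 by 0.55. The other desaturases of the FAD2 family, FAD2-2 and FAD2-3, did not pass, with differences of -0.42 and -0.37. The acyltransferase DGAT1A, of the last step of oil synthesis, differed by -0.17 (adjusted p = 0.79).

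Of 6 measured protease inhibitor and seed defence genes, KTI3 alone rose (16.7%). Of 7 protein disulfide isomerase and vacuolar processing genes, VPE alone rose (14.3%). Both shares lie near the 15.1% of all named genes.

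Among 30 measured genes of flavonoid and isoflavonoid synthesis, 8 rose and 1 fell (median difference 0.14). Of the 27 with a 2 mm array at log2 5 or more, 6 rose and 1 fell. UGT78K1 and CHI1B1 were under log2 5 in every 2 mm array. They passed the filter only through their 3.5 mm arrays, so they had to differ. IF7MaT, which adds malonate to isoflavone glucosides, was at 8.77, 8.91 and 9.55 in 3.5 mm seeds, against 4.68, 5.61 and 4.68 in 2 mm seeds (difference 4.09, SE 0.57, adjusted p = 0.000449). UGT78K1, an anthocyanidin glucosyltransferase, was at 6.29, 6.23 and 6.71, against 3.69, 4.02 and 3.36 (difference 2.72). IF7GT, the isoflavone glucosyltransferase, differed by 1.25.

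The chalcone isomerases CHI1B1 and CHI3A1 differed by 2.92 and 2.03, the leucoanthocyanidin reductase LAR1 by 1.20, the isoflavone reductase IFR1 by 1.11 and the coumarate ligase 4CL by 0.99. The methyltransferase gene SOMT-9 fell by 0.48. Without 3.5 mm replicate 3, CHI1B1 (adjusted p = 0.0568), IFR1 (0.0733) and SOMT-9 (0.0737) did not pass. The isoflavone synthases did not pass the filter: IFS1 was at 3.65, 6.84 and 7.52 at 3.5 mm, against 2.38, 2.58 and 2.48 at 2 mm, and IFS2 at 5.08, 4.70 and 8.06, against 2.26, 2.19 and 2.19. Both were above every 2 mm array in all 3 of the 3.5 mm arrays.

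Of 18 measured photosynthesis and chlorophyll genes, 6 rose and 1 fell (median difference 0.54), and without 3.5 mm replicate 3 the counts were 2 and 1. SGR, a stay-green protein of chlorophyll breakdown, was at 7.74, 7.66 and 8.36 at 3.5 mm, against 5.03, 5.04 and 4.81 at 2 mm (difference 2.96, SE 0.37, adjusted p = 0.000232). ATPC, a chloroplast ATP synthase subunit, differed by 1.31, PETC, the Rieske protein, by 1.24, the Rubisco activase gene RCAALPHA by 1.08 and CHLH, a magnesium chelatase subunit, by 0.91. HEMB, an early enzyme of tetrapyrrole synthesis, fell by 0.66. PETC, RCAALPHA and CHLH did not pass without replicate 3, with adjusted p values of 0.151, 0.0517 and 0.0591, while SGR and ATPC did.

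Of 14 measured genes of sucrose, starch and sugar transport, 3 rose and 2 fell. SWEET24, a sugar transporter gene, was at 15.36, 15.27 and 15.35 at 3.5 mm, against 14.22, 14.74 and 14.32 at 2 mm (difference 0.90, SE 0.15, adjusted p = 0.00134), and SWEET13 differed by 0.86. SWEET34, of the same family, fell by 0.90, and the trehalase gene TRE1 fell by 0.97. The invertase inhibitor CIF1 was at 9.60, 8.78 and 11.28, against 7.48, 7.48 and 7.52, a difference of 2.39. Without replicate 3, SWEET24 and SWEET13 passed, and CIF1 (difference 1.70, adjusted p = 0.0586), TRE1 (-0.79, adjusted p = 0.0772) and SWEET34 (-0.98, adjusted p = 0.0595) did not.

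Of 26 genes of amino acid supply, 3 rose and 0 fell (11.5% and 0%, beside 15.1% and 6.97% of all named genes). The cytosolic glutamine synthetase GS1-GAMMA was at 12, 11.73 and 12.20 in 3.5 mm arrays, against 9.16, 9.87 and 8.27 in 2 mm arrays (difference 2.87, SE 0.44, adjusted p = 0.000899). OAS-TL1, a cysteine synthase, differed by 0.67 (0.20 by another probe set, which did not pass, adjusted p = 0.397) and ALAAT3, an alanine aminotransferase, by 0.39. Without 2 mm replicate 2 the counts of this list were 6 rises and 1 fall.

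The largest falls were smaller than the largest rises, and fewer of them passed when an array was left out. GASA6, of the same peptide family as GASA12, was at 10.01, 9.46 and 7.66 in 3.5 mm seeds, against 13.39, 12.84 and 13.52 in 2 mm seeds (difference -4.21, SE 0.78, adjusted p = 0.00275). MYB142, a MYB transcription factor gene, was at 3.24, 3.43 and 2.59, against 7.63, 6.16 and 7.12 (difference -3.89, SE 0.36, adjusted p = 2.69e-05). It was under log2 5 in every 3.5 mm array and passed the filter only through the 2 mm arrays, so it had to differ. BZIP1, a bZIP factor gene, was at 5.27, 5.41 and 4.88, against 7.36, 6.99 and 7.04 (difference -1.94, SE 0.24). These 3 were the only ones of the 12 largest falls that also passed without 3.5 mm replicate 3.

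CKX3, a cytokinin dehydrogenase, which breaks down the hormone that sustains cell division, was at 8.76, 9.92 and 6.16 at 3.5 mm, against 11.97, 11.77 and 11.70 at 2 mm (difference -3.54, SE 0.84, adjusted p = 0.0118). Without replicate 3 its difference was -2.48 and its adjusted p 0.0569. Without replicate 3 the other falls that no longer passed kept their sign, and several kept their size: AOX1 then differed by -2.61, GSTIR by -1.99 and ALDH2C8 by -1.70. The alternative oxidase AOX1 was at 4.05, 5.20 and 4.09, against 6.80, 6.75 and 8.15 (difference -2.79). The protein kinase gene SPK-1 was at 5.95, 6.67 and 4.51, against 8.58, 8.14 and 8.76 (difference -2.78). The other members were NAC34 (-1.87), GSTIR (-1.75), PIB1 (-1.64), the vegetative lipoxygenase VLXB (-1.63), the aldehyde dehydrogenase ALDH2C8 (-1.56) and HDL57, a homeodomain-leucine zipper factor (-1.52). Although the groups did not overlap for any of the 12, as the naming rule required (18.2% of all tested probe sets were lower at 3.5 mm with no overlap), 7 of the 12 passed without 2 mm replicate 1 and 5 without 2 mm replicate 3.

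**Figure D4:**
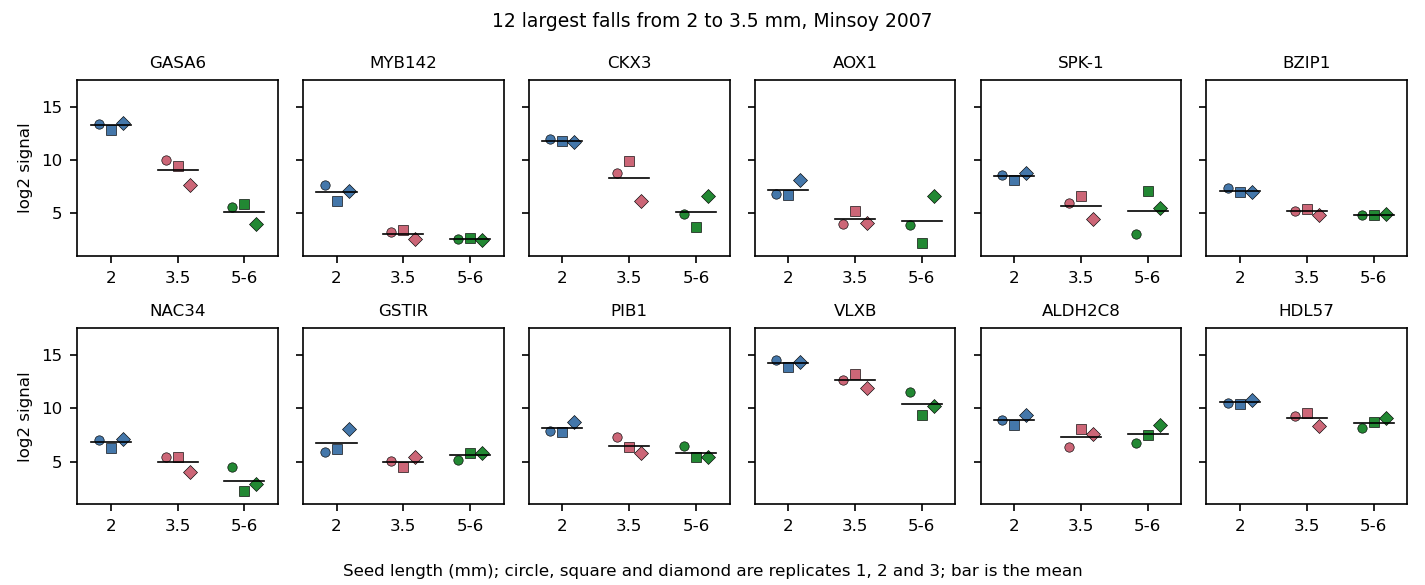
Log2 signal (vertical axis) of the 12 named genes with the largest called falls in each Minsoy array of 2007 at 2, 3.5 and 5-6 mm (horizontal axis); bars are group means of 3 arrays. For GASA6 and CKX3 the diamond of 3.5 mm replicate 3, at 7.66 and 6.16, is the lowest 3.5 mm point.

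Genes of hormone pathways went both ways: of 22 measured, 5 rose and 3 fell. GAI2, a DELLA repressor of gibberellin responses, was at 7.88, 7.99 and 9.0 in 3.5 mm seeds, against 5.38, 4.89 and 5.39 in 2 mm seeds (difference 3.07, SE 0.48, adjusted p = 0.000988). GA20OX3, a gibberellin-forming oxidase, differed by 1.55 and GA2OX8, a gibberellin-inactivating oxidase, by 1.53. The auxin carrier gene LAX11 was at 12.27, 12.19 and 12.19, against 10.64, 11.16 and 10.18, a difference of 1.55, and BES1-12, of the brassinosteroid-response factors, differed by 0.57. Beside CKX3, the auxin-induced gene AUX22 fell by 1.49 and D14, the strigolactone receptor gene, by 1.37. Neither AUX22 nor D14 passed without 3.5 mm replicate 3 (adjusted p = 0.0795 and 0.118), nor did GA20OX3 (0.136), and the list then had 3 rises and 0 falls.

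Transcription factor families held rises and falls side by side. Of 43 MYB genes 6 rose and 3 fell (14% and 6.98%), and of 45 bZIP genes 3 rose and 6 fell (6.67% and 13.3%). Of 17 WRKY genes 1 rose and 4 fell (5.88% and 23.5%), and of 9 NAC genes 1 rose and 2 fell (11.1% and 22.2%). Of all named genes 15.1% rose and 6.97% fell, so the MYB share is that of the background, and no family was tested against it. NAC23, 1 of the 2 NAC falls, was under log2 5 in every 3.5 mm array. It passed the filter only through the 2 mm arrays and had to differ, as did MYB142 of the MYB falls. Without 3.5 mm replicate 3 the MYB list had 4 rises and 1 fall, the bZIP list 3 and 3, the WRKY list 0 and 1 and the NAC list 0 and 0. PHANa, a homologue of the leaf patterning gene PHANTASTICA, was at 10.41, 10.40 and 10.91 at 3.5 mm, against 9.03, 9.0 and 9.02 at 2 mm (difference 1.55, SE 0.20, adjusted p = 0.000303). MYB68 differed by 2.57 and MYB179 by 1.43. BZIP132 was at 10.13, 10.15 and 11.81, against 8.25, 8.29 and 7.92, a difference of 2.54, and BZIP125 was at 12.18, 12.53 and 11.46, against 13.76, 13.26 and 13.62, a difference of -1.49. The WRKY genes that fell, WRKY52 (-1.49), WRKY22 (-0.91), WRKY59 (-0.88) and WRKY33 (-0.72), changed less than the MYB and bZIP extremes, and without replicate 3 WRKY52 alone of these 4 passed. DREB1 of the DREB family was at 11.32, 10.46 and 11.34, against 7.10, 9.05 and 8.0 (difference 2.99).

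Smaller changes stood in structural and transport lists. Of 10 cell wall genes 3 rose and 1 fell: the proline-rich protein PRP1 by 1.36, the expansin EXP4 by 1.20 and PRP3 by 0.65, while SBPRP fell by 0.89. Without 3.5 mm replicate 3, PRP1 alone of these 4 passed (adjusted p = 0.0231), while EXP4 differed by 1.13, PRP3 by 0.62 and SBPRP by -0.59. Of 18 aquaporin genes 3 rose and 1 fell, the largest being SIP1-6 with 1.22 by its probe set of highest signal and 2.84 by another. By both probe sets SIP1-6 was under log2 5 in every 2 mm array. It passed the filter only through the 3.5 mm arrays, so it had to differ. Of the 17 aquaporin genes with a 2 mm array at log2 5 or more, 2 rose and 1 fell. Under quantile normalization 0 of the 18 rose and 1 fell. Without 3.5 mm replicate 3, 0 aquaporin genes passed in either direction. Of 19 glutathione S-transferase genes 3 rose and 1 fell, and GSTF7 was at 11.16, 10.32 and 11.03, against 7.06, 8.11 and 7.12, a difference of 3.41. Of 14 GASA genes 2 rose and 1 fell: GASA12 and GASA9 (1.09) and GASA6. The shares that rose and fell were 16.7% and 5.56% for aquaporins and 15.8% and 5.26% for glutathione S-transferases. For GASA genes they were 14.3% and 7.14%. All of these lie near the 15.1% and 6.97% of all named genes. The cell wall shares were 30% and 10%, of few genes.

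Neither seed coat marker that could be tested passed. SCB1, a seed coat BURP-domain protein, was at 16.20, 16.26 and 16.02 in 3.5 mm seeds, against 16.25, 16.21 and 16.29 in 2 mm seeds, a difference of -0.09. Ep, the seed coat peroxidase, was at 6.49, 12.18 and 11.94, against 7.60, 9.29 and 6.12 (difference 2.53, adjusted p = 0.262), and its groups overlapped. HPS, the hydrophobic seed surface protein, was at 3.58, 9.53 and 4.72, against 3.58, 10.63 and 4.59, so that it was high in replicate 2 of both lengths. It did not pass the filter. The levels of Ep and HPS varied more between arrays of 1 length than between the lengths.

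Of 3 vegetative storage genes 1 rose and 1 fell: VSPA, a vegetative storage protein, was at 10.71, 10.24 and 11.14 at 3.5 mm, against 7.67, 8.54 and 7.79 at 2 mm (difference 2.70, adjusted p = 0.00676), while VLXB fell. Of 12 lipoxygenase and jasmonate genes 1 rose (LOX3) and 1 fell (VLXB). Of the 11 with a 2 mm array at log2 5 or more, 0 rose and 1 fell. LOXB1, a vegetative lipoxygenase, was at 8.81, 9.87 and 8.33, against 12.17, 11.25 and 12.35 (difference -2.92, adjusted p = 0.0732). Of 16 heat shock genes HOP1, a chaperone adaptor, rose by 0.48 and 0 fell, with a median difference of -0.60. Of 9 clock and photoperiod genes CRY2B, a blue light receptor that was under log2 5 in every 2 mm array, rose by 1.66. CRY2B passed the filter only through the 3.5 mm arrays, so it had to differ. Of the 8 clock and photoperiod genes with a 2 mm array at log2 5 or more, 0 rose and 0 fell. Of 6 cell cycle and tubulin genes TUBB3 rose by 0.53, and of 4 ribosomal protein genes and 8 defence genes 0 passed in either direction in limma. RPL2 differed by 0.20 and PR-10, a defence protein, by 2.09 (adjusted p = 0.068). The only histone gene measured, H4, was at 5.99, 8.63 and 7.01, against 7.28, 6.80 and 7.58, and its groups overlapped.

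**Figure D5:**
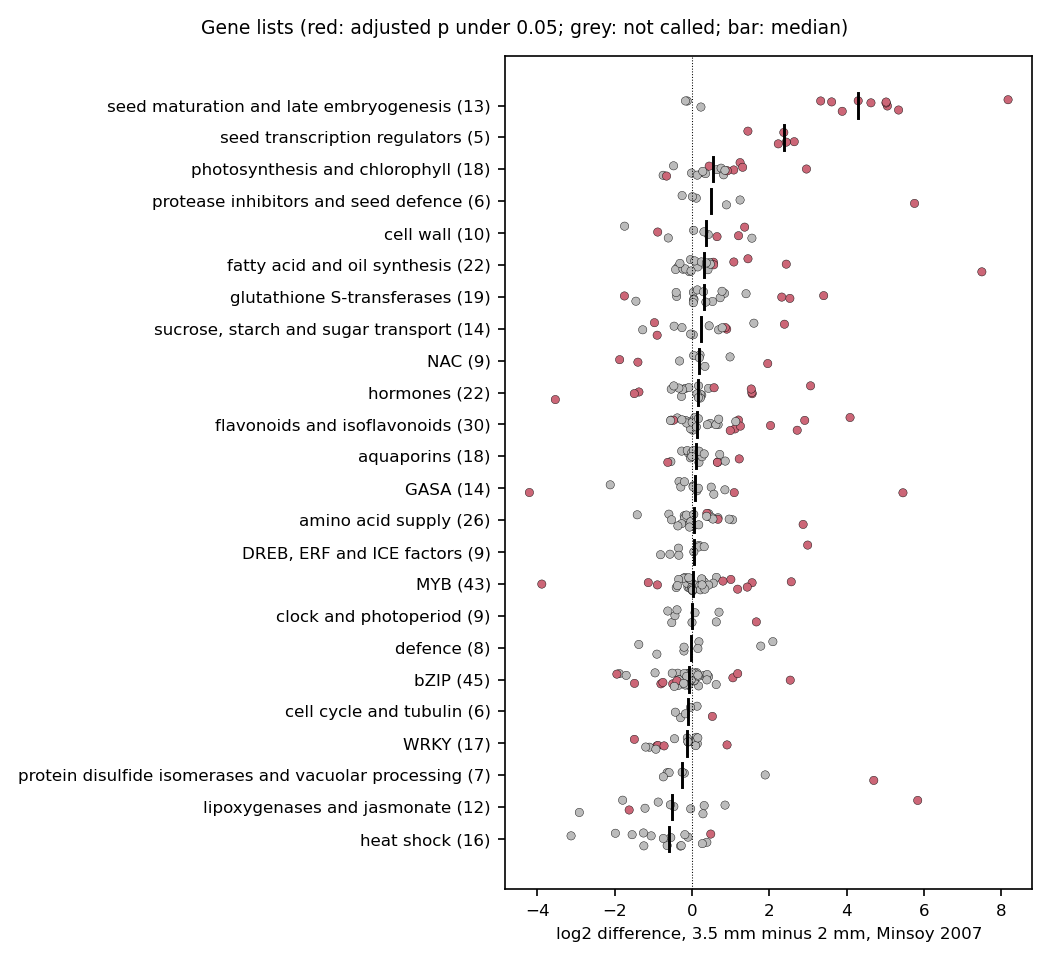
Log2 difference between 3.5 mm and 2 mm Minsoy seeds of 2007 (horizontal axis) for each measured gene of the lists with 5 or more measured genes (rows; number measured in parentheses); red points have an adjusted p under 0.05, grey points do not, and black bars are list medians. The medians of the seed maturation genes (4.30) and the seed transcription regulators (2.38) lie farthest to the right, beside a median of 0.05 over all 717 named genes.

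The second question was whether the step differed in Archer, the other parent, grown in the same season. In the test of the difference between the lines 2 of 24148 probe sets (0.00828%) passed, both with the lower step in Minsoy. Both had passed the level filter only through the Minsoy 2 mm arrays. Without Archer 3.5 mm replicate 3 the count was 28. An unadjusted p under 0.05 was found for 843, fewer than the share of 0.05 that no difference would give. No named gene passed. The lowest unadjusted p was that of MYB142, whose difference was -3.89 in Minsoy and -1.82 in Archer (difference of the steps -2.06, SE 0.50, unadjusted p = 0.00105, adjusted p = 1). A1 differed by 4.32 in Minsoy and by 8.13 in Archer, where the 3.5 mm arrays were at 11.57, 11.04 and 13.59 and the 2 mm arrays at 5.33, 2.72 and 3.75. A1 was thus higher in every Minsoy array than in the Archer arrays of the same length.

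The same step in Archer called 1980 probe sets (8.2%), of which 4.27% of all tested rose and 3.93% fell. Of the 3538 Minsoy calls 3462 (97.85%) had the same sign in Archer, beside 73.2% of the probe sets not called in Minsoy, and 1376 were called in both with the same sign. Probe set Gma.7341.1.A1_s_at, with no gene name here, was the 1 called in opposite directions (0.72 in Minsoy and -0.76 in Archer). The median change of these probe sets in the Minsoy direction was 1.00 in Minsoy, where they were chosen by passing the test, and 0.66 in Archer, so the sizes are not a comparison of the lines. All 5 seed transcription regulators were called in Archer as well, LEC1-A with a difference of 2.26 and WRI1B with 2.02. Of the 12 largest Minsoy rises, 7 were called in Archer and 12 had the same sign.

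KTI3 rose by 5.76 in Minsoy and by 5.92 in Archer, while PM34 differed by 8.18 in Minsoy and by 3.88 in Archer, where it did not pass (adjusted p = 0.0536). The Archer 3.5 mm arrays of PM34 were at 5.65, 3.74 and 8.95, and those of KTI3 at 11.67, 11.83 and 14.61. In both genes Archer replicate 3 was the highest of its group, and on the first principal component that array lay at 18.3, with the other 3.5 mm arrays of Archer at -43.7 and -43.8. GY1 was at 1.96 in each of the 3.5 mm arrays of Archer, replicate 3 included.

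The third question was how the step looked in Minsoy seeds of the next season. The 2008 arrays were normalized apart from those of 2007, so differences were taken within the year. In 2008 limma called 0 probe sets (0%). Of the 24148 tested, 1359 had an unadjusted p under 0.05, near the share of 0.05 that no change would give. The direction was mostly shared: 3326 of the 3538 calls of 2007 (94.01%) had the same sign in 2008, beside 62.6% of the probe sets not called, with a median change of 0.33 in the direction of 2007. FAD2-1A differed by 7.50 in 2007 and by 5.34 in 2008, PM34 by 8.18 and 3.05, KTI3 by 5.76 and 2.13, and LEC1-A by 2.65 and 1.06.

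One 2 mm array of 2008 stood apart. The median level of the probe sets that rose in 2007 was 9.71, 9.46 and 9.59 in the 3.5 mm arrays of 2008, against 9.99, 8.60 and 8.72 in the 2 mm arrays, so that 2 mm replicate 1 lay above all 3.5 mm arrays. The fallen probe sets were lowest in that array too, at 8.0, against 8.86 and 8.74 in the other 2 mm arrays. Without it 97.46% of the 2007 calls had the same sign in 2008, and without 2 mm replicate 2, which leaves it in, 79.9% did.

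Minsoy seeds of 5-6 mm show where the changes stood at the next length. That step shares the 3.5 mm arrays, so its values are set beside the first step and not tested against it. Between 5-6 mm and 3.5 mm, 2647 probe sets (11%) were called, of which 607 (2.51%) rose and 2040 (8.45%) fell. None of the 12 largest rises of the first step was called again, although all 12 had a higher mean at 5-6 mm. LOX3 differed by a further 4.97 (limma adjusted p = 0.056), PM16 by 3.37 (0.0603), PM34 by 3.32 (0.0706) and P89 by 1.04 (0.26). PM34 reached 13.14, 14.56 and 14.26 at 5-6 mm. KTI3 was at 15.54, 15.63 and 15.62 at 5-6 mm, near its 3.5 mm arrays. LEC1-A was at 12.14, 11.27 and 12.15, a difference of -0.25 from 3.5 mm.

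Falls went on in 4 of the 12. GASA6 fell by a further 3.89, to 5.63, 5.84 and 3.98, and CKX3 by a further 3.13, to 5.00, 3.77 and 6.68. The others were NAC34 and VLXB, with differences of -1.74 and -2.23. MYB142, at 2.59, 2.68 and 2.52 in 5-6 mm seeds, lay near the floor.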

How the data were processed

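Total RNA of whole seeds was labelled with biotin and read on Affymetrix soybean arrays, with an array for each sample. The deposited values are log2 signals per probe set, made by the authors with GCRMA (version not stated), per the submitters' processing notes. The lowest value is 1.96 in both sets of parental arrays (1.95864 in 2007 and 1.96162 in 2008) and -1.56 in the recombinant lines, so the 3 sets were taken as normalized apart, and only arrays of 1 set were compared. A log2 value near the floor is no measured level.

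From the deposited values 126 Affymetrix and 48 ribosomal RNA control probe sets were left out. A mean per line and length was fitted to the 18 parental arrays of 2007 with limma 3.58.1 in R 4.3.3 (lmFit, eBayes). The Benjamini-Hochberg adjustment ran over the 24148 probe sets, with a threshold of 0.05. The annotation gave 8677 probe sets 1 gene, 370 several and 28523 none. Pipeline and fits were tested on simulated data.

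A gene is read by the probe set of highest mean signal. Named genes are the 12 largest called differences each way with groups that do not overlap, and up to 4 called members of each list, or the member of largest difference where none was called. Others are named as list members, or as stated in the text. The members and lists were chosen with earlier results of these data known. Alternatives were other filters, scalings, variance models, sets of arrays, a replicate block and leaving out each array. The number of arrays limits the precision.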

Additional observations from a re-analysis of the deposited data

Results flagged for a closer look

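In 2 probe sets the step from 2 to 3.5 mm differed between Minsoy and Archer by the test of the difference itself. Both were under log2 5 in every other array of the 4 groups and passed the level filter only through the 3 Minsoy 2 mm arrays, where they are high. They thus had to differ between the Minsoy lengths, and the adjusted p values below rest in part on that choice. GmaAffx.68133.1.S1_at, annotated to LOC100816273, was at 1.96 in each Minsoy 3.5 mm array, against 6.09, 5.90 and 5.23 in the Minsoy 2 mm arrays, and it was at 1.96 in all 6 Archer arrays of both lengths (difference of the steps -3.78, SE 0.22, adjusted p = 1.05e-06 in limma). In the groups at the floor its spread is 0, so this p is not that of a measured level. GmaAffx.54474.1.S1_at, with no gene name here, was at 4.71, 4.54 and 4.91 in Minsoy 3.5 mm seeds, against 6.92, 6.21 and 6.61 in Minsoy 2 mm seeds. In Archer it was at 4.65, 4.46 and 4.46 at 3.5 mm, against 4.71, 4.73 and 4.75 at 2 mm (difference of the steps -1.65, SE 0.22, adjusted p = 0.0279). Both were thus raised in the 2 mm seeds of Minsoy and in no other group of the 4.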

How the results depend on the processing

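The count of probe sets called between 3.5 mm and 2 mm, 3538, lay between 1804 and 3959 when single arrays were left out, was 5071 (2908 rises and 2163 falls) with array weights, the highest of the alternatives, 2217 with all 54 arrays in the fit and 1064 among probe sets with 1 annotated gene, a smaller set; the cause of the move with all 54 arrays was not tested. The fit with a replicate block gave 3276 calls. Over all tested probe sets, same-numbered arrays correlated at -0.03, 0.08 and 0.02 after centring within each length. This cannot settle a pairing for single genes, and HPS was high in replicate 2 of both lengths. The 2 calls of the difference from Archer became 28 without a filter, 0 with a filter at log2 7, and 1 with the block, with a trended and robust eBayes, among 1-gene probe sets, with all 54 arrays and without the Archer 5-6 mm array numbered 1, and 1 to 28 with single arrays left out. The cause was not tested. The share of the same sign in Archer was 96.73% without a filter, 98.48% among calls of 2-fold or more, 98.89% for calls made without Minsoy 3.5 mm replicate 3 (an alternative chosen after seeing the data) and 95.7% to 98.22% with single arrays left out. In 2008 it was 97.3% among 2-fold calls, 96.84% for calls made without 3.5 mm replicate 3 of 2007 and 79.9% to 97.46% with single arrays left out. Of 82 named genes 78 were called and 41 of these stayed called in every alternative run; of 1375 values 179 lost their call, 34 of them without 3.5 mm replicate 3. H4, at -0.01, turned to 0.02, 0.17, 0.60 and 0.10 without 2 mm replicate 1, 2 mm replicate 3, 3.5 mm replicate 1 and 3.5 mm replicate 3; over single arrays left out it ran from -0.72 to 0.60. The list counts without 3.5 mm replicate 3 or 2 mm replicate 2 were also chosen after seeing the data. Values near 1.96 have no order.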

Other observations

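Among probe sets with no annotated gene, the 2 largest called differences each way were larger than those of the named genes. Probe sets with other annotations were not ranked with them. Gma.13030.3.S1_at was at 12.42, 12.81 and 15.48 in Minsoy 3.5 mm seeds, against 2.01, 2.00 and 2.01 in 2 mm seeds (difference 11.56, SE 1.65, limma adjusted p = 0.000519). It was near the floor in all 2 mm arrays and passed the level filter only through the 3.5 mm arrays, so its difference is not exact. Gma.10770.1.S1_at was at 14.61, 14.72 and 15.91, against 3.40, 7.57 and 5.47 (difference 9.60, adjusted p = 0.000106). The largest falls among them were those of Gma.9448.1.S1_at and Gma.6532.1.S1_at. Gma.9448.1.S1_at was at 6.55, 3.08 and 2.81, against 11.30, 10.69 and 11.18 (difference -6.91). Gma.6532.1.S1_at was at 4.29, 6.12 and 4.03, against 10.70, 11.00 and 11.05 (difference -6.10). The groups did not overlap in any of the 4. Of all tested probe sets, 17.8% were higher and 18.2% lower at 3.5 mm with no overlap.

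Second probe sets of VLXB, WRKY51 and WRKY59 had the direction of the first and did not pass (adjusted p = 0.0518, 0.0836 and 0.0864). LOXB1 was read differently by its probe sets: the one of highest signal differed by -2.92 and did not pass, and another differed by -3.84 and did (adjusted p = 0.00202). BBI and BG7S-1, a Bowman-Birk inhibitor gene and a basic globulin gene, were at 2.00, 3.95 and 13.30 and at 1.96, 1.96 and 8.2 in the 3.5 mm arrays, against 2.00 and 1.96 in each 2 mm array.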
